A study of Homo sapiens with 8 samples.

Results

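This section describes 10 genes of the WNT pathway in SUIT2, an EN1-expressing human cell line of pancreatic ductal adenocarcinoma (PDA): the ligands *WNT7B* and *WNT10A*, the co-receptor *LRP6*, the receptor-removing ligases *RNF43* and *ZNRF3*, the secreted inhibitor *DKK1*, the effectors *CTNNB1*, *TCF7L2* and *LEF1*, and the target gene *AXIN2*. The genes were listed by symbol for their roles, with earlier results of these data known. All 10 were found among the 25702 genes in the files. RNA-seq had been done on 8 libraries: 4 labelled shScr (scramble shRNA), 2 labelled shEN1 #1 and 2 labelled shEN1 #2 (independent shRNA constructs against *EN1*, a homeodomain transcription factor). The *EN1* shRNAs were in the pLKO.1 puro vector, the vector of the scramble shRNA is not given in the sources used here, and no group is untransduced. Neither the labels nor the methods say whether libraries of a group came from separate cultures, so the p-values measure only the spread between these libraries, which may be technical.

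WNT ligands bind a Frizzled receptor together with *LRP5* or *LRP6*, and the signal spares β-catenin, the product of *CTNNB1*, from a destruction complex built on *APC*, *AXIN1* or *AXIN2*, GSK3 and casein kinase 1. Spared β-catenin enters the nucleus and acts with TCF and LEF factors on target genes, of which *AXIN2*, *RNF43* and *ZNRF3* feed back to damp the pathway, and *DKK1* blocks *LRP6* from outside the cell. In PDA the pathway is known for tumours that depend on secreted WNT, among them those with loss of *RNF43*.

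The targeted gene did not separate the labels. *EN1* was at 4.10, 4.50, 4.94 and 2.51 counts per 1000000 counts of the library (CPM, scaled with edgeR's TMM factors) in the libraries labelled shScr replicates 1 to 4. It was at 5.77 and 5.41 CPM in the libraries labelled shEN1 #1 and at 1.35 and 6.70 CPM in those labelled shEN1 #2. Of the 4 shEN1 libraries, 3 thus lay above every shScr library, and the fitted log2 fold change was 0.26 ± 0.43 (SE; edgeR, adjusted p = 1.00). Group names below are therefore those of the labels.

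The libraries held between 33423590 and 37810604 counts, and depth differed by a factor of 1.13 at most. Over all 14333 tested genes, shScr replicate 4 and shEN1 #2 replicate 1 stood apart, at 59.2 and 62.1 on a first principal component that held 44.4% of the variance, against -27.6 to -9.15 for the others. So did shScr replicate 3 and shEN1 #1 replicate 1 on the second (17.5%), at -39.3 and -30.6. Each of these pairs joins a shScr and a shEN1 library. All 5 epithelial markers were detected in every library, with a summed level of 11446 to 14937 CPM in shScr and 11110 to 17630 CPM in shEN1. Among markers of other cells, *COL1A2*, *DCN*, *LUM*, *PTPRC*, *CD3E*, *MS4A1*, *CDH5*, *CPA1* and *AMY2A* had 0 counts in every library. The summed levels of the other cell types were 1.27 to 4.22 CPM in shScr and 1.17 to 2.75 CPM in shEN1 for fibroblasts, and 9.29 to 28.2 and 8.03 to 34.7 CPM for immune cells, nearly all of it *CD68*. They were at most 1.41 CPM in every library for endothelial and acinar cells.

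**Figure D1:**
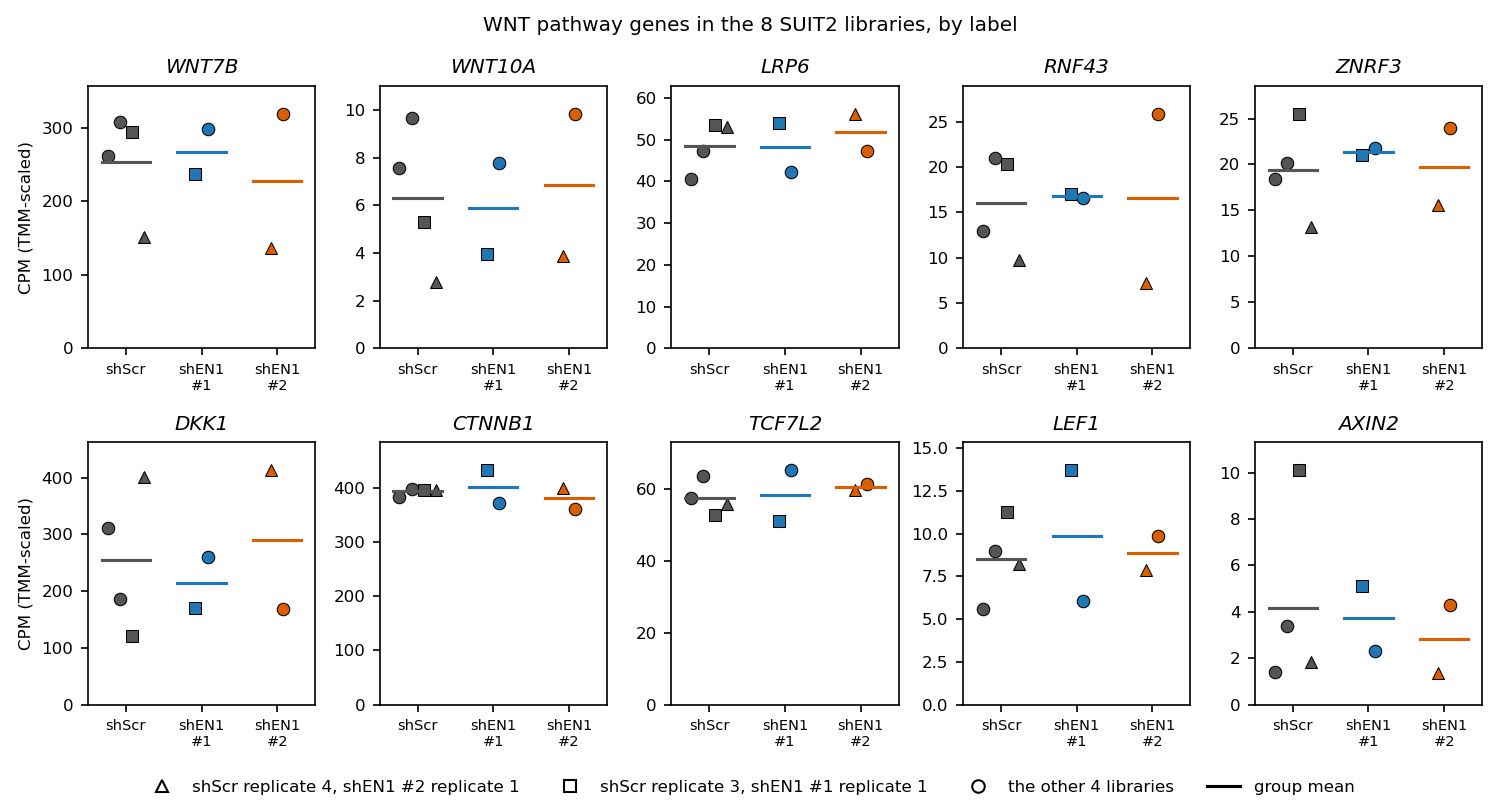
CPM (TMM-scaled, linear axis from 0) of the 10 WNT pathway genes in each of the 8 libraries, by label; each point is a library and each bar the group mean. The groups overlap in every panel, and triangles (shScr replicate 4 and shEN1 #2 replicate 1) sit lowest for *WNT7B*, *WNT10A*, *RNF43* and *ZNRF3* and highest for *DKK1*.

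Ligands were present at similar mean levels under both labels. *WNT7B* (chromosome 22, 46316246 to 46373042, minus strand, GRCh37), a ligand of the β-catenin branch, was at 262, 308, 294 and 152 CPM in shScr, at 237 and 298 CPM in shEN1 #1, and at 136 and 319 CPM in shEN1 #2. Its lowest value and its highest value both belonged to shEN1 #2, and the groups overlapped. Its means of 254 ± 70.8 CPM in shScr and 248 ± 81.9 CPM in shEN1 (SD, n = 4 each) gave a fitted log2 fold change of -0.04 ± 0.29 (SE; 95% interval -0.68 to 0.60, edgeR adjusted p = 1.00).

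*WNT10A* (chromosome 2, 219745574 to 219764303, plus strand), another ligand of that branch, had far fewer reads. Its levels were 7.56, 9.65, 5.31 and 2.78 CPM in shScr, 3.98 and 7.77 CPM in shEN1 #1, and 3.89 and 9.83 CPM in shEN1 #2. The highest shScr library and the highest shEN1 library were nearly level, the lowest value was in shScr, and the groups overlapped. Its log2 fold change was 0.01 ± 0.42 (interval -0.92 to 0.94), on means of 6.33 ± 2.96 and 6.37 ± 2.93 CPM.

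*LRP6* (chromosome 12, 12268959 to 12419978, minus strand), the co-receptor, varied little. It was at 40.6, 47.2, 53.4 and 53.0 CPM in shScr, at 54.0 and 42.3 CPM in shEN1 #1 and at 56.1 and 47.4 CPM in shEN1 #2. The highest library was 1.38 times the lowest, and the log2 fold change was 0.04 ± 0.14 (interval -0.26 to 0.34).

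*RNF43* (chromosome 17, 56431037 to 56494956, minus strand) and *ZNRF3* (chromosome 22, 29279560 to 29453476, plus strand) encode related ubiquitin ligases that take Frizzled receptors off the cell surface. *RNF43* was at 12.9, 21.01, 20.3 and 9.72 CPM in shScr, at 17.1 and 16.6 CPM in shEN1 #1 and at 7.21 and 25.8 CPM in shEN1 #2. *ZNRF3* was at 18.5, 20.2, 25.5 and 13.2 CPM in shScr, at 20.98 and 21.8 CPM in shEN1 #1 and at 15.6 and 23.9 CPM in shEN1 #2. For both genes the libraries shScr replicate 4 and shEN1 #2 replicate 1 held the 2 lowest values, so the low libraries carried opposite labels. The log2 fold changes were 0.06 ± 0.37 (interval -0.77 to 0.89) for *RNF43* and 0.09 ± 0.21 (interval -0.38 to 0.55) for *ZNRF3*. *RNF43* shares 345 of its 6329 annotated exon bases with *TSPOAP1-AS1* on the opposite strand. The strand setting of the counting is not given in the sources used here, so reads in that stretch cannot be told apart. *RNF43* also shares 4326 exon bases on the same strand with the protein-coding gene ENSG00000285897, which was not matched by name in the files.

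*DKK1* (chromosome 10, 54074041 to 54077802, plus strand), which binds *LRP6* and blocks it, varied more than *WNT7B* or *CTNNB1*, the other genes with over 100 CPM in every library. It was at 311, 187, 121 and 401 CPM in shScr, at 170.3 and 260.2 CPM in shEN1 #1 and at 413 and 168 CPM in shEN1 #2. The shScr libraries spanned 121 to 401 CPM and the shEN1 libraries 168 to 413 CPM, and the 2 highest were again shScr replicate 4 and shEN1 #2 replicate 1. The means were 255 ± 125 and 253 ± 115 CPM (SD, n = 4 each), with a log2 fold change of -0.01 ± 0.40 (interval -0.92 to 0.90). *DKK1* shares 227 exon bases with *PRKG1-AS1* on the opposite strand.

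*DKK1* is also known as a gene that β-catenin switches on, and the letters that TCF and LEF factors read were searched in its promoter. RefSeq promoters (windows of 300 bases, most of them upstream of the gene's start, GRCh38.p14) matched 6 of the 10 genes: *WNT10A*, *CTNNB1*, *LEF1*, *DKK1*, *TCF7L2* and *RNF43*. Of these 6, only *DKK1* held CTTTGA or its reverse complement TCAAAG, which 15.5% of all 27305 genes with a promoter and 11.8% of the 10915 tested ones held. None of the 6 held TAATTA, a core sequence of homeodomain factors such as *EN1*, which reads the same on both strands and was present in 5.95% of all and 3.01% of tested genes' promoters. The stretches around both *DKK1* matches are shown 5′ to 3′ on the plus strand, since they are the only matches among these promoters, with the match in capitals. A match is a description of the sequence, not a bound site.
DKK1 position -149 (chr10:52314121-52314148): ggtgaagagtgTCAAAGgccccccttca
DKK1 position -95 (chr10:52314175-52314202): ccctcccagcgCTTTGAaatcccatccc

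*CTNNB1* (chromosome 3, 41236232 to 41301587, plus strand), which encodes β-catenin, was the steadiest of the 10 transcripts. It was at 385, 399, 397 and 397 CPM in shScr, at 433 and 373 CPM in shEN1 #1 and at 401 and 362 CPM in shEN1 #2. The highest library was only 1.197 times the lowest, and the SD of its log2 CPM, 0.08, lay at percentile 1.28 among all tested genes. The log2 fold change was -0.01 ± 0.10 (interval -0.23 to 0.21), the narrowest interval of the 10. The values are of mRNA and hold no information on β-catenin protein, which is regulated by its breakdown.

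*TCF7L2* (chromosome 10, 114710006 to 114927437, plus strand), the main TCF factor of gut epithelia, was nearly as steady. Its levels were 57.5, 63.6, 52.5 and 55.8 CPM in shScr, 51.1 and 65.1 CPM in shEN1 #1, and 59.7 and 61.2 CPM in shEN1 #2. The lowest library and the highest library were both shEN1 #1, and the log2 fold change was 0.05 ± 0.12 (interval -0.21 to 0.30).

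*LEF1* (chromosome 4, 108968701 to 109090112, minus strand), a TCF-family factor that is itself a WNT target in many tissues, was less abundant and less even. It was at 5.60, 8.95, 11.3 and 8.20 CPM in shScr, at 13.7 and 6.06 CPM in shEN1 #1 and at 7.85 and 9.83 CPM in shEN1 #2. Its highest values were in shEN1 #1 replicate 1 and shScr replicate 3, which carry different labels. The log2 fold change was 0.14 ± 0.28 (interval -0.49 to 0.77, unadjusted p = 0.638). *LEF1* shares 279 exon bases with *LEF1-AS1* on the opposite strand.

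*AXIN2* (chromosome 17, 63524681 to 63557766, minus strand), the target gene most often used to read the pathway's output, had the widest relative spread of the 10. It was at 1.42, 3.40, 10.1 and 1.82 CPM in shScr, at 5.13 and 2.32 CPM in shEN1 #1 and at 1.37 and 4.30 CPM in shEN1 #2. Its highest library, shScr replicate 3, was 7.36 times its lowest, shEN1 #2 replicate 1, and the second highest was shEN1 #1 replicate 1. The SD of its log2 CPM was 0.99, at percentile 94.7 among all tested genes. The values rest on 47 to 352 counts per library. *AXIN2* shares 1316 exon bases on the same strand with the protein-coding gene ENSG00000266076, which was not matched by name in the files. The means were 4.18 ± 4.04 and 3.28 ± 1.73 CPM (SD, n = 4 each), and the log2 fold change was -0.35 ± 0.64 (interval -1.79 to 1.09, unadjusted p = 0.597). That sign rests on 1 library: without shScr replicate 3 the log2 fold change was 0.57.

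Across the 10 genes, 6 log2 fold changes were above 0 and 4 below, with a median of 0.02, against a median of -0.003 over all tested genes. None of the 10 had an adjusted p below 0.05 in edgeR or in DESeq2, and none had an unadjusted p below 0.05 in either edgeR or DESeq2. The background over all 14333 tested genes was 0 genes (0%) at the adjusted threshold in edgeR (2 in DESeq2) and 44 (0.307%) at an unadjusted p below 0.05 (39 in DESeq2). No member had groups that did not overlap in CPM, against 60 of all tested genes (0.419%). The median SD of log2 CPM was 0.45 over the 10 genes and 0.26 over all tested genes. A p above the threshold does not show that levels were alike under both labels, and the interval beside each gene gives the changes its data allow.

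The constructs were also compared with the same 4 shScr libraries one by one, in a fit with 3 groups. For shEN1 #1, log2 fold changes ran from -0.25 ± 0.52 (*DKK1*) to 0.22 ± 0.36 (*LEF1*). For shEN1 #2 they ran from -0.56 ± 0.85 (*AXIN2*) to 0.19 ± 0.51 (*DKK1*). *DKK1* was thus the lowest value for one construct and the highest for the other, but the direct test of shEN1 #2 against shEN1 #1 gave 0.43 ± 0.59 for it (unadjusted p = 0.486). No member passed an adjusted or an unadjusted p of 0.05 in any of the 3 comparisons. The background over all tested genes was 0 genes (0%) at the adjusted threshold in each, while an unadjusted p below 0.05 was reached by 94 genes (0.656%) in shEN1 #1, 43 (0.3%) in shEN1 #2 and 153 (1.07%) between constructs. Ordered by mean CPM, the 3 groups stood as shEN1 #1, shScr, shEN1 #2 from high to low for *WNT7B* and *CTNNB1*. The order was shEN1 #2, shScr, shEN1 #1 for *WNT10A*, *LRP6* and *DKK1*. In *AXIN2* it was shScr, shEN1 #1, shEN1 #2, and in *RNF43*, *ZNRF3*, *LEF1* and *TCF7L2* both constructs stood above shScr. Neighbours in these orders overlapped in every gene.

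High and low values of these genes were shared by libraries of different labels. The libraries shScr replicate 4 and shEN1 #2 replicate 1 held the 2 lowest values for 4 of the 10 genes (*WNT7B*, *WNT10A*, *RNF43* and *ZNRF3*). Of all tested genes, 19.2% had the same order. For *WNT10A* this was a near tie, at 3.89 CPM (153 counts) in shEN1 #2 replicate 1 and 3.98 CPM (142 counts) in shEN1 #1 replicate 1. The libraries shScr replicate 4 and shEN1 #2 replicate 1 also held the 2 highest values for *DKK1* (18.9% of all tested genes). The libraries shScr replicate 3 and shEN1 #1 replicate 1 held the 2 highest values for *AXIN2* and *LEF1* (7.05% of all tested genes) and the 2 lowest for *TCF7L2* (6.83%). Of the 10 genes, 2 (*LRP6* and *CTNNB1*) fell under neither pattern. The same 2 libraries held the lowest values of 3 of the 5 epithelial markers, *EPCAM*, *CDH1* and *KRT19*: *EPCAM* was at 234 and 241 CPM in shScr replicate 4 and shEN1 #2 replicate 1, against 366 to 589 CPM in the others, and *KRT19* was at 400.3 and 321 CPM, against 831 to 1648 CPM. *KRT8* and *KRT18* were lowest in shEN1 #1 replicate 1 (6094 CPM) and shScr replicate 3 (3586 CPM), and the summed level of the 5 markers was lowest in shEN1 #1 replicate 1. The part of these markers in the WNT gene values was not tested. *EN1* itself was lowest in shEN1 #2 replicate 1 (1.35 CPM) and shScr replicate 4 (2.51 CPM).

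Distances between libraries over the 10 genes were measured too. Taken as the root mean square difference in log2 CPM, the nearest library carried the other label for 8 of 8 libraries, and for 7 of 8 over all tested genes. The closest pair was shScr replicate 2 with shEN1 #2 replicate 2 (0.18). The next were shScr replicate 4 with shEN1 #2 replicate 1 (0.26), shScr replicate 1 with shEN1 #1 replicate 2 (0.29), shScr replicate 2 with shEN1 #1 replicate 2 (0.33), and shScr replicate 3 with shEN1 #1 replicate 1 (0.41). Each of these 5 pairs joined a shScr and a shEN1 library. The closest libraries of the same label were shEN1 #1 replicate 2 and shEN1 #2 replicate 2 (0.47), and among shScr libraries replicates 1 and 2 (0.57).

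**Figure D2:**
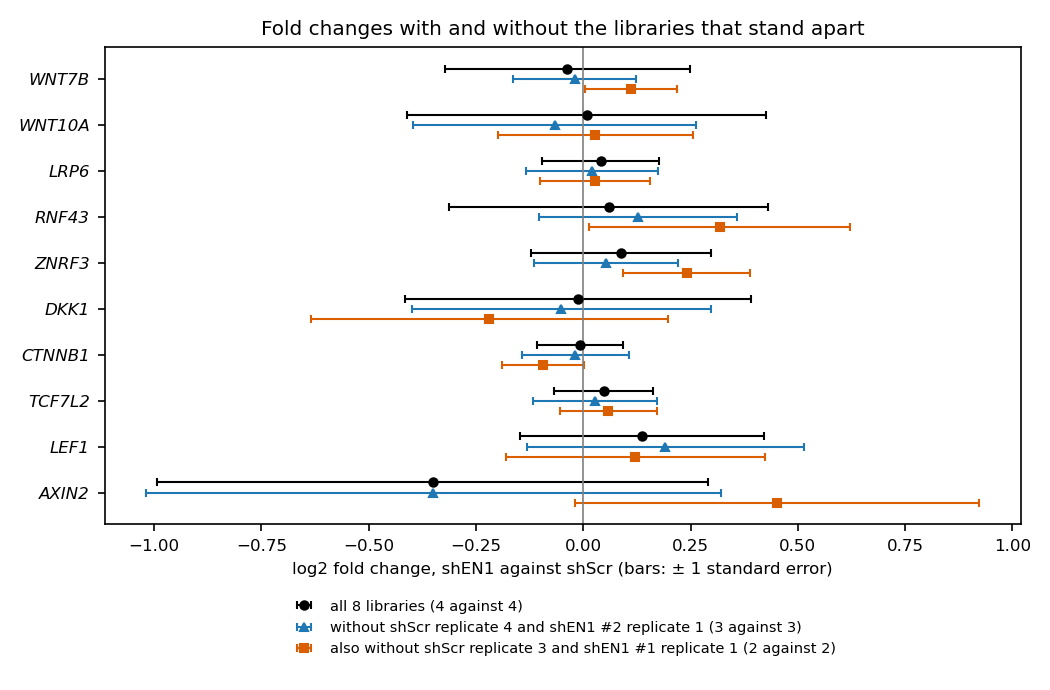
Log2 fold change of shEN1 against shScr (horizontal axis, bars ± 1 SE) for each of the 10 genes in 3 edgeR fits: all 8 libraries, without shScr replicate 4 and shEN1 #2 replicate 1, and also without shScr replicate 3 and shEN1 #1 replicate 1. Without 4 libraries *AXIN2* moves from -0.35 to 0.45, and no gene passes the adjusted threshold in any fit.

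Fold changes were recomputed without the libraries that stood apart. Leaving out shScr replicate 4 and shEN1 #2 replicate 1 (3 against 3) gave -0.02 for *WNT7B*, -0.07 for *WNT10A*, 0.02 for *LRP6*, 0.13 for *RNF43*, 0.05 for *ZNRF3*, -0.05 for *DKK1*, -0.02 for *CTNNB1*, 0.03 for *TCF7L2*, 0.19 for *LEF1* and -0.35 for *AXIN2*. The SE was smaller in that fit for 5 genes, as for *WNT7B* (0.29 to 0.14) and *RNF43* (0.37 to 0.23), and larger for the other 5, as for *LEF1* (0.28 to 0.32) and *CTNNB1* (0.10 to 0.13). Leaving out shScr replicate 3 and shEN1 #1 replicate 1 as well (2 against 2) gave 0.11 for *WNT7B*, 0.32 for *RNF43*, 0.24 for *ZNRF3*, -0.22 for *DKK1*, -0.09 for *CTNNB1* and 0.45 for *AXIN2*, with *WNT10A*, *LRP6*, *TCF7L2* and *LEF1* between 0.03 and 0.12 in this fit. The lowest adjusted p of any member in these fits was 0.570, for *ZNRF3* in the fit of 2 against 2.

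**Figure D3:**
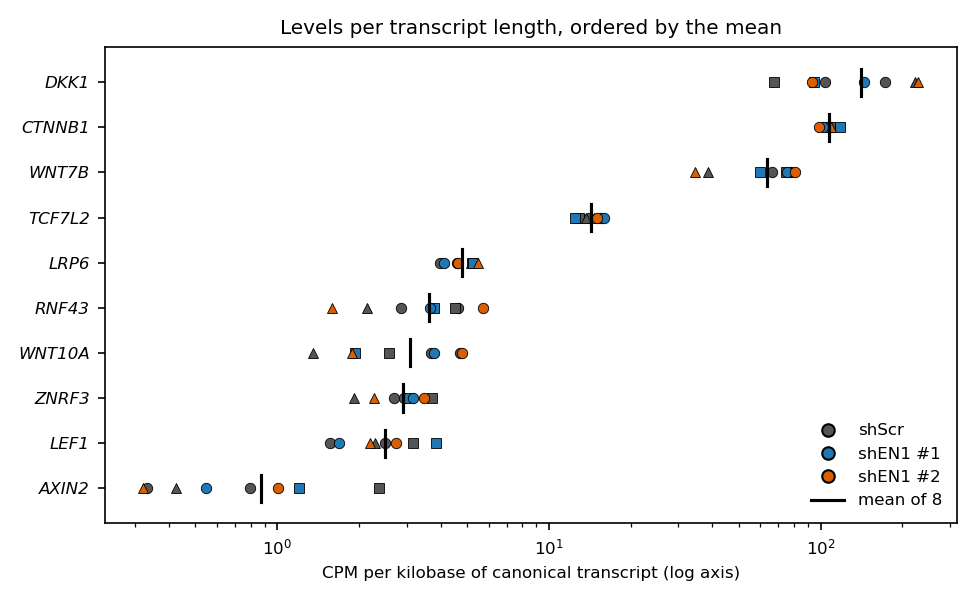
Level of the 10 genes in CPM per kilobase of the canonical transcript (log axis), ordered by the mean of 8 libraries (vertical tick); each point is a library, coloured by label, with triangles for shScr replicate 4 and shEN1 #2 replicate 1 and squares for shScr replicate 3 and shEN1 #1 replicate 1. *DKK1*, *CTNNB1* and *WNT7B* lie above the rest, and *AXIN2* has the lowest mean.

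Levels between genes were compared per kilobase of the canonical transcript. *DKK1* (141 ± 61.7 CPM per kilobase, SD over 8 libraries) and *CTNNB1* (107 ± 5.83) were the most abundant. They were not ordered beyond their spread, since *DKK1* was above *CTNNB1* in 4 of 8 libraries. *WNT7B* came next at 63.5 ± 17.97 CPM per kilobase and then *TCF7L2* at 14.3 ± 1.23, each below its upper neighbour in 8 of 8 libraries. *LRP6* (4.81), *RNF43* (3.61), *WNT10A* (3.09), *ZNRF3* (2.91) and *LEF1* (2.50) followed, and neighbours among these 5 were in the stated order in only 4 to 6 of 8 libraries. *AXIN2* had the lowest level, 0.876 ± 0.685 CPM per kilobase, and lay below *LEF1* in 8 of 8 libraries. Per kilobase of all annotated exons, *WNT7B* (49.4) stood above *CTNNB1* (33.5) and *ZNRF3* moved up to place 6, so these 2 steps of the order depend on the length used.

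Genes with the profiles most like the 2 most variable members were sought among 12702 named protein-coding tested genes, by the root mean square difference of centred log2 CPM over the 8 libraries. Nearest to *AXIN2* were *HES7* (0.31), *CCDC169* (0.33) and *SMIM32* (0.33), where the median gene was at 0.96. *SMIM32* shared the high value of shScr replicate 3, at 16.1 CPM against 2.98 to 6.26 CPM elsewhere. *HES7* had no such lone peak, at 4.59 CPM there, 4.31 CPM in shEN1 #1 replicate 1 and 4.21 CPM in shEN1 #2 replicate 2. *CCDC169* was low throughout, at 0.102 to 0.947 CPM. Nearest to *WNT10A* were *TMEM125* (0.13), *LIPG* (0.18) and *AP1M2* (0.18), where the median gene was at 0.66. *AP1M2*, a subunit of the epithelial clathrin adaptor AP-1B, was at 18.8 and 18.1 CPM in shScr replicate 4 and shEN1 #2 replicate 1 and at 26.1 to 59.8 CPM in the others.

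A wider list of 83 other WNT pathway genes gave the setting of the 10. Of these, 57 passed the filter on low counts, and 29 log2 fold changes were above 0 and 28 below, with a median of 0.01. None had an adjusted or an unadjusted p below 0.05 in edgeR or in DESeq2, and none had groups that did not overlap, and the lowest unadjusted p was 0.161, for *TLE2*. By role, 5 of 8 ligands, 2 of 2 ligand secretion genes, 6 of 12 receptors, 0 of 3 LGR genes, 2 of 3 inhibitors, 10 of 13 cytoplasmic genes, 3 of 10 nuclear genes and 1 of 6 targets had values above 0. With no member of any role past a test, these counts are no call.

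SUIT2 expressed 10 of the 19 human WNT genes above the filter, *WNT7B* and *WNT10A* among them. The next ligand in level was *WNT7A*, a close paralog of *WNT7B*, at 52.6, 48.5, 36.7 and 16.2 CPM in shScr, 42.9 and 60.3 CPM in shEN1 #1 and 15.4 and 58.4 CPM in shEN1 #2. It was low in the same libraries as *WNT7B*, shScr replicate 4 and shEN1 #2 replicate 1. *WLS*, which carries WNT proteins to the cell surface, was even, at 101 to 136 CPM. Of the 26 genes that did not pass, none had more than 30 counts in a library, and 11 had 0 counts in every library: *WNT1*, *WNT8A*, *WNT9B*, *FZD10*, *RSPO1*, *RSPO4*, *DKK2*, *DKK4*, *SFRP1*, *SFRP2* and *WIF1*. A count of 0 allows up to 0.0762 to 0.0921 CPM by library (3 counts, counting error only).

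Most abundant in the other roles were *LRP5*, the other co-receptor (210.5 to 366 CPM), *LGR4*, an R-spondin receptor (92.5 to 115 CPM), *DKK3*, a DKK-family protein (11.9 to 21.9 CPM), *CSNK1A1*, the casein kinase that first marks β-catenin for breakdown (192 to 255 CPM), and *BCL9L*, a β-catenin co-activator (197 to 320 CPM). Of the tested targets *CD44*, an adhesion receptor, was most abundant, at 1012, 997, 924 and 585 CPM in shScr, 1039 and 934 CPM in shEN1 #1 and 635 and 895 CPM in shEN1 #2. Its 2 lowest libraries were shScr replicate 4 and shEN1 #2 replicate 1. Over the 57 genes these 2 libraries held the 2 lowest values for 16 (28.1%) and the 2 highest for 17 (29.8%), against 19.2% and 18.9% of all tested genes.

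The largest spread on the wider list belonged to genes of low level. *LGR5*, a stem cell R-spondin receptor and WNT target, was at 0.57, 3.16, 3.19 and 0.16 CPM in shScr, 2.18 and 0.88 CPM in shEN1 #1 and 0.46 and 1.84 CPM in shEN1 #2. The 0.46 CPM of shEN1 #2 replicate 1 was a near tie with the 0.57 CPM of shScr replicate 1. By these values the 2 lowest libraries of *LGR5* were those of *WNT7B*, shScr replicate 4 and shEN1 #2 replicate 1. *LGR6*, its paralog, was at 5.45 and 4.29 CPM in those libraries and at 9.55 to 18.6 CPM in the others. *APCDD1*, a membrane WNT inhibitor and target, was highest in shScr replicate 3 (7.83 CPM), as *AXIN2* was, and next in shEN1 #1 replicate 1 (3.73 CPM). *TCF7L1*, a mostly repressive TCF factor, ran from 0.0588 to 1.82 CPM with its highest values in shScr replicate 4 and shEN1 #2 replicate 1, and *WNT8B* was at or below 0.378 CPM in every library.

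**Figure D4:**
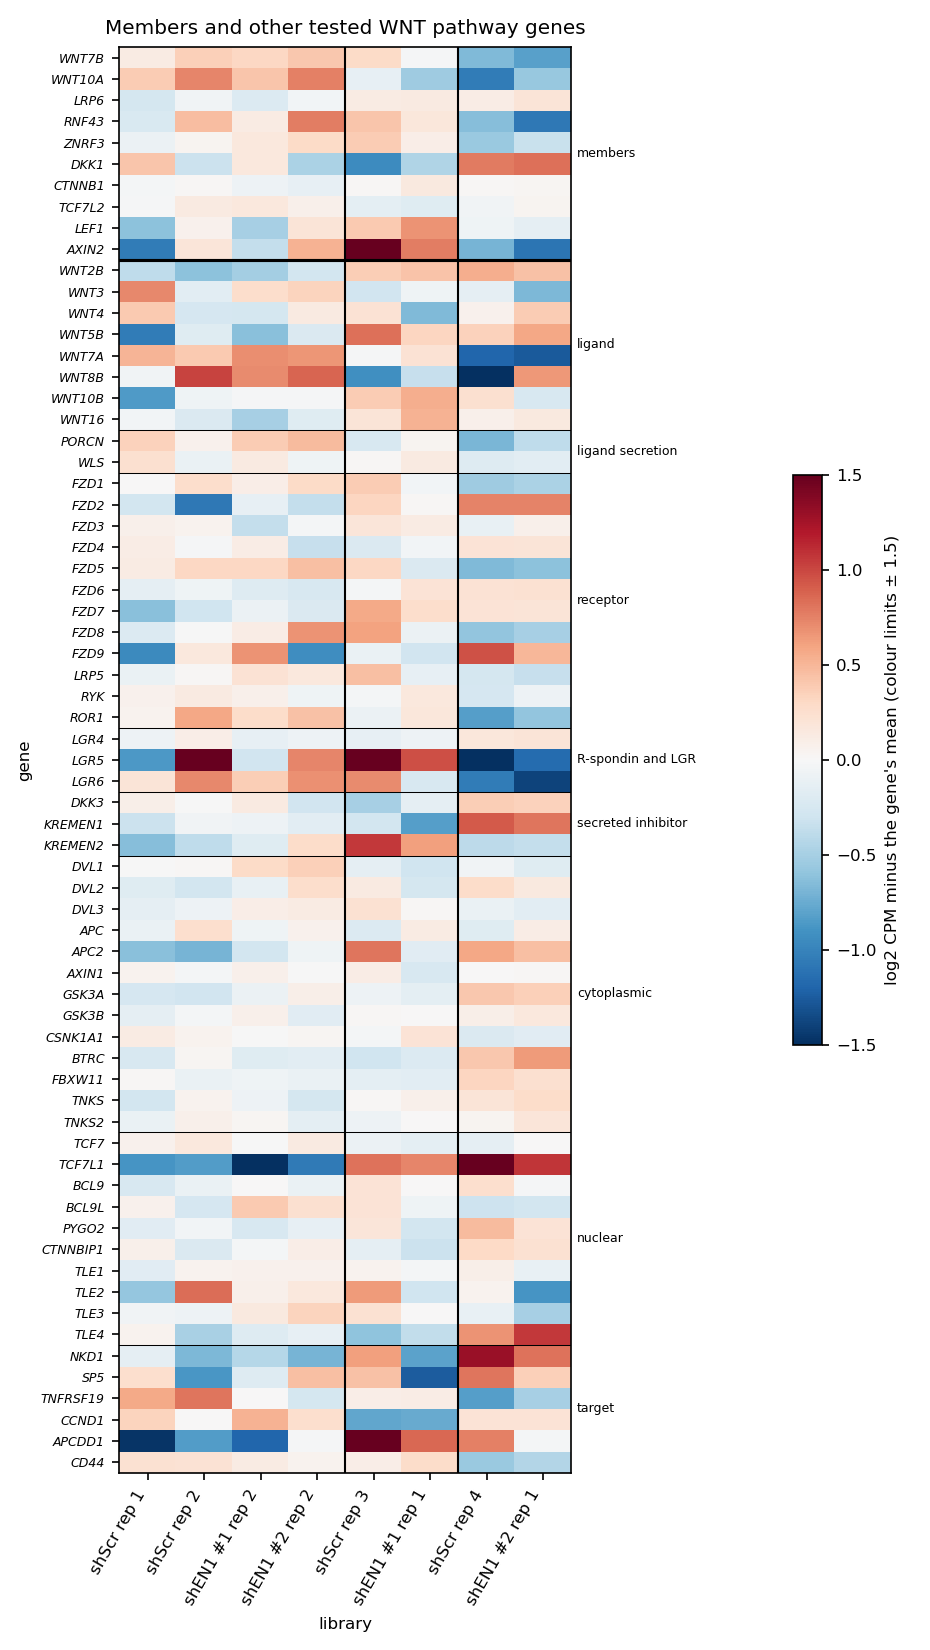
Log2 CPM minus each gene's mean (colour, limits ± 1.5) in the 8 libraries. The top block holds the 10 genes described here, and below are the 57 other tested WNT pathway genes, grouped by role. The 2 pairs that stood apart are placed last, after the other 4 libraries. The columns of shScr replicate 4 and shEN1 #2 replicate 1 are alike for genes such as *WNT7A* and *LGR6*, both low there, although the labels differ. Not every gene follows its pair. *WNT8B* was at -1.93 and 0.65 in these libraries, and *SP5* at 0.44 and -1.25 in shScr replicate 3 and shEN1 #1 replicate 1.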

How the data were processed

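RNA of SUIT2 cells was sequenced by poly(A) selection and paired-end reads in 8 libraries. The authors aligned reads to hg19 with HISAT2 and counted them with featureCounts, per the methods; the submitters' processing notes name mm9, although the genes are human. The annotation and strand setting are not given in the sources used here. The files the authors deposited hold raw read counts, as whole numbers, for genes named by Entrez number. Symbols for 23696 of 25702 genes came from a RefSeq table of a later build; the other 2006 held 0.214% to 0.257% of a library's counts, and positions are from GENCODE on GRCh37, the build of hg19. The libraries' totals, 33423590 to 37810604, put the counting error of *DKK1* and *WNT7B* far below their spread between libraries. The margin was smaller for *CTNNB1*, a very even gene.

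Libraries were grouped by label. Genes were kept by filterByExpr (minimum count 10; 14333 genes), scaled with TMM (factors 0.962 to 1.07) and tested with edgeR 4.0.16 (quasi-likelihood) in R 4.3.3, 4 shEN1 against 4 shScr, with Benjamini-Hochberg adjustment over all tested genes and a threshold of 0.05. A fit with 3 groups over the same genes compared the constructs. The SE was taken from the fold change and the F statistic. CPM are counts per 1000000 counts of the TMM-scaled library, and log2 CPM used a prior count of 2. The scripts were tested on simulated data, where recovery of changed genes was required only with the spread reduced below that of these data. Recovery at the real spread is not reported here. Alternatives were DESeq2 1.42.0, its size factors, library size only, no filter, 3 groups, the replicate number as a block, and fits without libraries. The order of levels per kilobase of all exons was added after seeing the data.

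The 10 genes and the gene lists were chosen with earlier results of these data known. Besides them, the text names *EN1*, the most abundant tested pathway gene of each role, pathway genes with an unadjusted p below 0.05 or groups that did not overlap (there were 0), the 5 most variable ones, and for the 2 most variable members the 3 genes with the nearest profile. Among them and the cell type markers, *TLE2*, *EPCAM* and *KRT19* were picked after their values were seen.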

Additional observations from a re-analysis of the deposited data

Results flagged for a closer look

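Of 24 groups of 4 values examined, 2 held a library far from the other 3, where chance gives about 1.2. *CTNNB1* in shScr replicate 1 (385 CPM) lay apart from the other shScr libraries (397 to 399 CPM), a small distance in a very even gene. The TMM factor of shEN1 #2 replicate 1 (1.07) lay apart from the other shEN1 libraries (0.974 to 0.981). This is a library that also stood apart over all genes.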

How the results depend on the processing

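No member and no gene of the wider list was called under any alternative. Over all genes the count of calls was 0 as reported, 2 with DESeq2, 1 with the replicate block, 1 without shScr replicate 4 and shEN1 #2 replicate 1, 1 without 4 libraries, and 0 to 1 when libraries were left out in turn (1 without shScr replicate 4). Counts at an unadjusted p below 0.05 were 44 as reported, 167 without a filter, 271 with the replicate block, 1512 with 2 against 2 and 32 to 96 when libraries were left out in turn. In fits with 3 groups, leaving out any shEN1 library left its construct with a lone library assumed to vary like the others. The p-values of those fits are not counted here. The wider list had 57 genes tested in the main fit. At an unadjusted p below 0.05 it had 2 genes with the replicate block, 6 with 2 against 2 and 1 without shScr replicate 1. Over all tested genes the counts in these fits were 271 of 14333, 1512 of 14273 and 63 of 14606. The counts on the wider list are no call.

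Of 80 member values under 8 other settings, 71 kept their sign and 9 changed it. Without a filter *CTNNB1* was at 0.0024. With the replicate block *WNT10A* was at -0.55, *DKK1* at 0.049, *RNF43* at -0.039, *AXIN2* at 0.52 and *TCF7L2* at -0.032. Without shScr replicate 4 and shEN1 #2 replicate 1 *WNT10A* was at -0.067, and without 4 libraries *WNT7B* was at 0.11 and *AXIN2* at 0.45. The cause was not tested. Correlations of same-numbered libraries ran from -0.33 to 0.44. With 2 libraries per construct they cannot show whether the replicate numbers pair the libraries. The shScr replicates 3 and 4 have no partner, so the fit with the replicate block takes no fold change from them.

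Leaving out libraries in turn changed the sign of 23 of 80 values, at least once for each of the 10 genes. The log2 fold changes ran from -0.22 to 0.16 for *WNT7B*, -0.28 to 0.29 for *WNT10A*, -0.036 to 0.11 for *LRP6*, -0.23 to 0.30 for *RNF43*, -0.056 to 0.25 for *ZNRF3*, -0.36 to 0.29 for *DKK1*, -0.059 to 0.029 for *CTNNB1*, -0.0029 to 0.11 for *TCF7L2*, -0.10 to 0.30 for *LEF1* and -0.65 to 0.57 for *AXIN2*. Each of the 8 libraries changed at least 1 sign. *AXIN2* rests on as few as 47 counts in a library.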
